A study of Mus musculus with 8 samples.

Results

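The aquaporins were the genes with the symbols Aqp1, Aqp2, Aqp3, Aqp4, Aqp5, Aqp7, Aqp8, Aqp9 and Aqp11, 9 of the 19348 genes in the tables, and were chosen by symbol alone. RNA-seq had been carried out on liver and on epididymal white adipose tissue (eWAT, the fat pad attached to the epididymis) of male C57BL/6 mice aged 12 weeks and fasted for 16 h. Each tissue was taken from 2 mice labelled Crtc1-/- and 2 labelled Crtc1+/+, 8 libraries in all. The Crtc1-/- mice carried a CRISPR/Cas9 deletion of Crtc1, a coactivator of the transcription factor CREB, in the whole body, and the Crtc1+/+ mice were wild-type littermates. The labels give no other allele or treatment that separated the groups, and the effect of the deletion in fat or liver cells cannot be told apart from that of its loss in other organs.

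Aquaporins are membrane channels that let water cross cells along an osmotic gradient. A subgroup, the aquaglyceroporins Aqp3, Aqp7 and Aqp9, also passes glycerol. In fasting, adipocytes split stored triglyceride and release the glycerol through Aqp7, and hepatocytes take it up through Aqp9 to make glucose. Aqp1 is the water channel of capillary endothelium and red cells, Aqp8 is found in hepatocytes and other epithelia, and Aqp11 lies in intracellular membranes. The duct of the epididymis absorbs fluid from around the sperm, and its principal cells hold much Aqp9. Aqp2 is the vasopressin-regulated channel of the kidney collecting duct, Aqp4 the main channel of astrocytes and Aqp5 a channel of glands and lung.

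In the GENCODE annotation of GRCm38, several aquaporins were neighbours. Aqp2 (chr15:99579055-99584547), Aqp5 (chr15:99590782-99594829) and Aqp6 (chr15:99601400-99605477), all on the plus strand, followed each other with gaps of 6234 and 6570 bp. Aqp6 is a further family member that was followed as a comparison, as were Mip and Aqp12. Aqp7 (chr4:41033074-41048139) and Aqp3 (chr4:41092722-41098183) lay on the minus strand, 44582 bp apart. Aqp1 (chr6:55336432-55348555, plus strand), Aqp9 (chr9:71110659-71168682, minus strand), Aqp8 (chr7:123462291-123468004, plus strand), Aqp11 (chr7:97724006-97738289, minus strand) and Aqp4 had no aquaporin close by. Aqp4 and Aqp9 overlapped annotated antisense genes that are not rows of the count table, and whether the counting used strand is not given in the sources used here.

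Promoter windows of RefSeq on GRCm38.p6 were matched for 8 of the 9 members, all except Aqp4. Shown here are those of Aqp1 and Aqp7, the members that changed together in eWAT, and of Aqp9, whose level stood apart in 1 eWAT library. Each covers bases 250 to 11 before a start site, 5′ to 3′ on the strand of the gene, without any exon of that gene. They are Aqp1 at chr6:55336049-55336288 (plus strand), Aqp7 at chr4:41048147-41048386 (minus strand) and Aqp9 at chr9:71162644-71162883 (minus strand, before a start site inside the annotated gene). Capitals mark TGACCT, the complement of the nuclear receptor half-site AGGTCA.
Aqp1: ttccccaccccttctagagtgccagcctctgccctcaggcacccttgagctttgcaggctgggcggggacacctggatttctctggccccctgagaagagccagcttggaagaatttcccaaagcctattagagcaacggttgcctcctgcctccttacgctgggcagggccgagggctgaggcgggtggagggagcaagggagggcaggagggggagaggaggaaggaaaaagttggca
Aqp7: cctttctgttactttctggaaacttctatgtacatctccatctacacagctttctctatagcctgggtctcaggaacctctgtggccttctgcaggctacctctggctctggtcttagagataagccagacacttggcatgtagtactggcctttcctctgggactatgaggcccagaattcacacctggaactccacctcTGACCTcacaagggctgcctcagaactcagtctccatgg
Aqp9: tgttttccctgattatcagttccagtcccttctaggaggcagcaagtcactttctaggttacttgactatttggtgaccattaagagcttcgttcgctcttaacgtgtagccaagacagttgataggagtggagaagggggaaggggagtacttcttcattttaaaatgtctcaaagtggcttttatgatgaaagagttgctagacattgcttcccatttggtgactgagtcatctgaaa
Of the motifs searched on both strands, the Aqp7 window shown held AGGTCA, which 13.5% of all 32851 windows held. A second window of Aqp7, which overlaps an exon of the gene, held it at bases -223 and -101. The first of these lies in the stretch that both windows share. The windows of Aqp1 and Aqp9 held neither AGGTCA, the CREB element TGACGTCA, its half-site TGACG nor the TATA motif TATAAA, which occurred in 1.44%, 16.9% and 12.1% of all windows for the last 3 in that order. Among the other aquaporins, a window of Aqp2 held TGACG, a part of TGACGTCA, at base -211 from the start site, and not the whole of it. A window of Aqp11, a member that did not pass the test in eWAT, also held AGGTCA, at base -230, and that of Aqp3 held TATAAA at base -29. These letters in a window are a description and not a binding site.

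The libraries held 16560085 to 19721481 counts, so that 3 counts, taken as the floor of detection, corresponded to 0.152 to 0.181 CPM, the counts of a gene scaled to the library total. The mean level of Crtc1 was not lower under the Crtc1-/- label, with 57.6 and 27.5 CPM against 36.9 and 36.9 CPM in eWAT, where 1 library was above and 1 below both of the other label, and 22.1 and 18.6 against 11.6 and 9.61 CPM in liver. Counts over the whole gene cannot show a deletion of some of its exons, so the groups are named here by their labels. The eWAT libraries differed in their content of other tissues before any aquaporin was considered. A list of 15 epididymis genes led by Gpx5 took 7.77% and 9.10% of counts in eWAT under the Crtc1+/+ label and 0.00338% and 0.00126% under the Crtc1-/- label. A list of 11 hepatocyte genes led by Alb took 9.01% of counts in replicate 2 of eWAT under the Crtc1-/- label, against 0.0678% to 0.544% in the other eWAT libraries and 16.7% to 20.6% in liver. The 9 adipocyte genes, led by Fabp4, took 3.89% and 1.83% in eWAT under the Crtc1-/- label and 0.211% and 0.338% under the Crtc1+/+ label. Fewer cells of a type and less RNA per cell cannot be told apart in these bulk samples.

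Compared per transcript length, in FPKM, which scale fragments by gene length and library total, the shares of the aquaporins in eWAT differed between the labels more than those in liver. In eWAT under the Crtc1-/- label, Aqp1 made up 85.5% and 77.6% of the summed FPKM of the 9 members in replicates 1 and 2, and Aqp7 made up 13.5% in both. In eWAT under the Crtc1+/+ label, Aqp9 (32.6% and 42.8%) and Aqp1 (31.9% and 34.2%) had the largest shares, close together in replicate 1, where by CPM Aqp1 (39.2%) came before Aqp9 (38.4%). Aqp11 followed and Aqp7 had 5.22% and 6.72%. In all 4 liver libraries Aqp9 led, with 60.8% to 67.2%. The summed FPKM was 1244 and 794 in eWAT under the Crtc1-/- label, 152 and 126 under the Crtc1+/+ label, and 123 to 203 in liver. The 2 eWAT libraries labelled Crtc1-/- thus stood above the other 6 libraries in aquaporin RNA, which was mostly that of Aqp1.

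**Figure D1:**
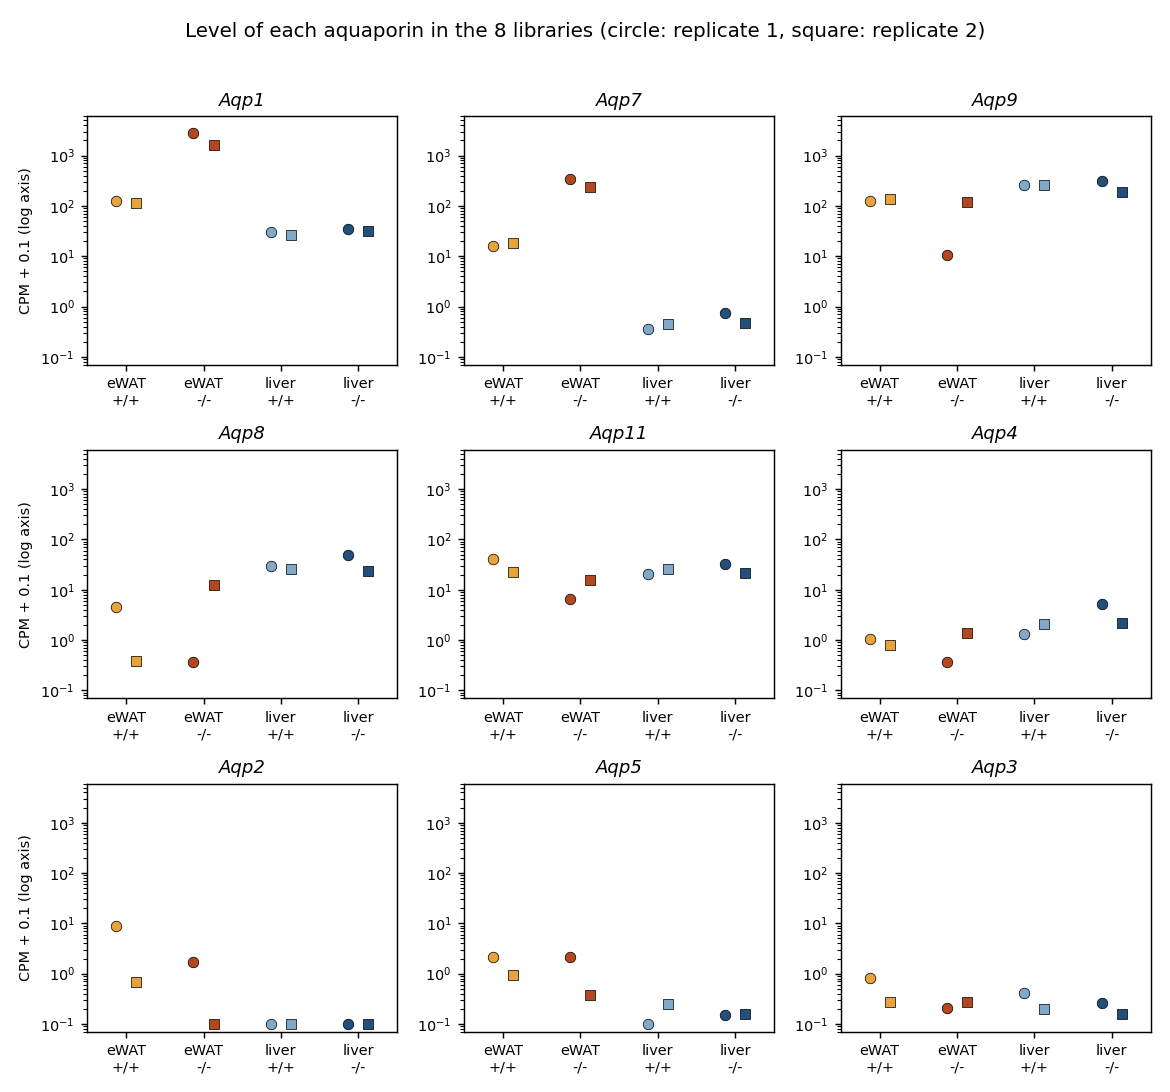
Level of each of the 9 aquaporins in every library, as CPM plus 0.1 on a log axis, grouped by tissue and genotype label, with a circle for replicate 1 and a square for replicate 2. Aqp1 and Aqp7 are highest in the 2 eWAT libraries labelled Crtc1-/-, Aqp9 and Aqp8 are highest in liver, and Aqp9, Aqp8 and Aqp4 are higher in replicate 2 than in replicate 1 of eWAT under the Crtc1-/- label.

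**Figure D2:**
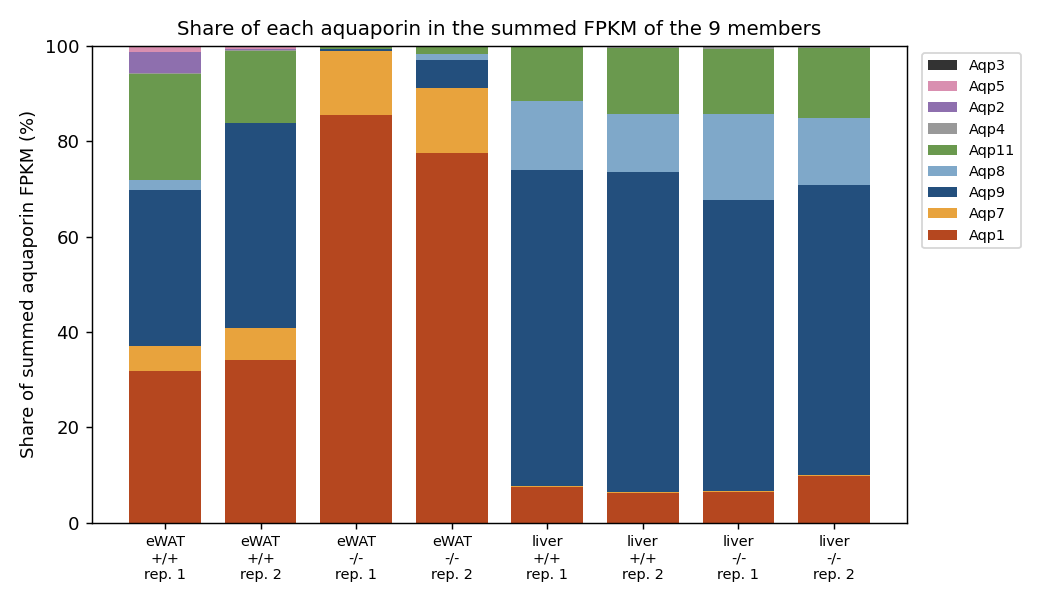
Share of each aquaporin in the summed FPKM of the 9 members, in percent, as 1 stacked bar per library. Aqp1 takes 85.5% and 77.6% in eWAT under the Crtc1-/- label, and Aqp9 takes 60.8% to 67.2% in the 4 liver libraries.

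The first comparison asked how the genotype label changed aquaporin RNA in eWAT. Aqp7, the glycerol channel of adipocytes, had 347 and 238 CPM in eWAT under the Crtc1-/- label and 15.9 and 18.4 CPM under the Crtc1+/+ label. Aqp1, the endothelial water channel, had 2782 and 1620.1 CPM against 127 and 113 CPM. For both genes the groups were far apart, and each library labelled Crtc1-/- stood more than 10 times above each library labelled Crtc1+/+. The means were 292 ± 77.2 against 17.1 ± 1.77 CPM for Aqp7 and 2201 ± 822 against 119.8 ± 10.03 CPM for Aqp1 (SD, n = 2), which are ratios of 17.1 and 18.4. By edgeR's quasi-likelihood test, which also scales libraries by TMM, the log2 fold change was 4.38 with a standard error of 0.34 for Aqp7 (adjusted p = 0.0155) and 4.49 with a standard error of 0.49 for Aqp1 (adjusted p = 0.017). These were the 2 members called, both up, of 8 tested, while 12.2% of all 15391 genes tested were called. The median log2 fold change was 0.13 over the tested members and -0.05 over all genes. With library totals that median over all genes was -0.35, and 587 of 1662 called genes were higher under the Crtc1-/- label, against 1023 of 1875 with TMM. In the same edgeR test, the log2 fold changes of Aqp7 and Aqp1 stayed between 4.26 and 4.55 without either eWAT library labelled Crtc1+/+. Both calls were lost there. These fits leave 1 library in that group and lost the calls of all genes, so the loss is not particular to Aqp7 and Aqp1.

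Adipocyte and endothelial markers rose in the same libraries. Of the adipocyte genes 7 of 9 and of the endothelial genes 9 of 10 passed the test upwards. Over all 15391 genes tested, 1023 did. The calls of both lists were lost without either eWAT library of the Crtc1+/+ label, as were those of all genes. The endothelial list, led by Cdh5 and Pecam1, summed to 4861 and 2798 CPM in eWAT under the Crtc1-/- label and to 373 and 375 CPM under the Crtc1+/+ label. Per 1000 CPM of adipocyte markers, Aqp7 stood at 8.92 and 12.98 CPM in eWAT under the Crtc1-/- label and at 7.53 and 5.43 CPM under the Crtc1+/+ label. Per 1000 CPM of endothelial markers, Aqp1 stood at 572 and 579 CPM against 340 and 300.3 CPM. On the log2 scale these ratios differed by 0.75 and 0.85 between the labels, where the unscaled fold changes exceeded 4, and in both cases the groups still did not overlap. With 2 libraries against 2, an exact permutation test cannot give a p below 0.333. In liver, Aqp1 stood at 429 and 360.2 CPM per 1000 CPM of endothelial markers under the Crtc1-/- label and at 544 and 516 CPM under the Crtc1+/+ label, so the order of the labels was opposite to that in eWAT. Aqp1 is also a gene of red cells, and the 7 erythroid genes summed to 7415 and 4396 CPM in eWAT under the Crtc1-/- label and to 1257 and 395 CPM under the Crtc1+/+ label. The part of the fat, vessel and blood content in the changes of Aqp7 and Aqp1 was not tested beyond these ratios.

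**Figure D3:**
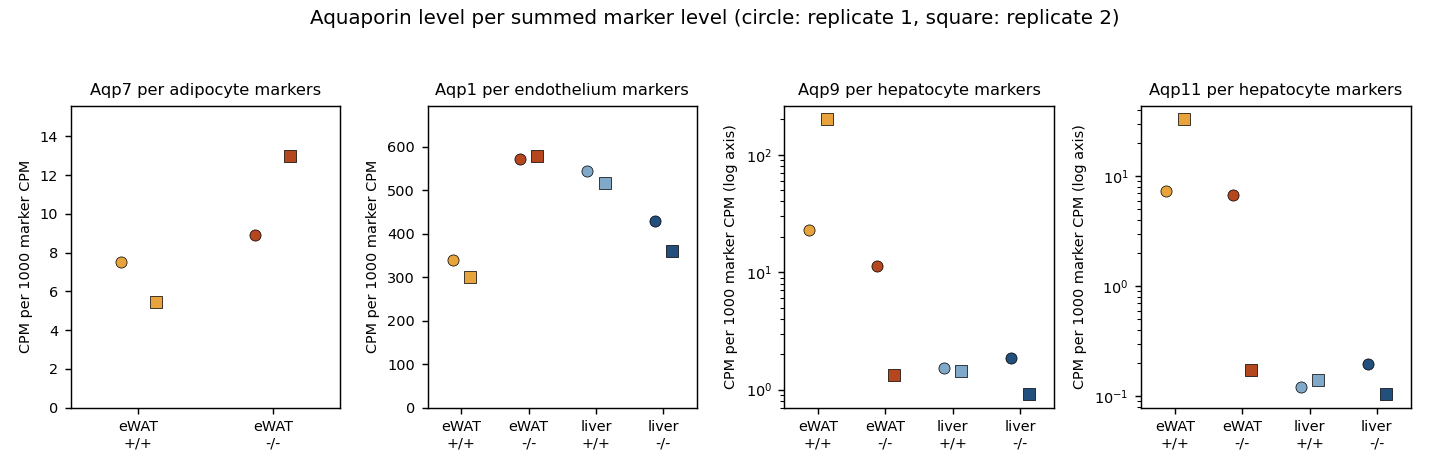
Level of Aqp7, Aqp1, Aqp9 and Aqp11 in CPM per 1000 CPM of a summed marker list, per library, with log axes for the hepatocyte lists. In eWAT the values of Aqp7 span 5.43 to 12.98 and those of Aqp1 300.3 to 579, and Aqp9 and Aqp11 of replicate 2 of eWAT under the Crtc1-/- label fall within the range of the liver libraries.

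Aqp9, the glycerol channel of hepatocytes and of the epididymal duct, had 10.6 CPM in replicate 1 of eWAT under the Crtc1-/- label and 120.1 CPM in replicate 2, against 124 and 135 CPM in eWAT under the Crtc1+/+ label. The low value was that of a single library, and replicate 2 lay just under both libraries of the other label. The log2 fold change was -0.56 with a standard error of 1.10 (edgeR, adjusted p = 0.741). Without replicate 2, the library with hepatocyte RNA, it was -3.46 (adjusted p = 0.00918), and without replicate 1 it was 0.34 (adjusted p = 0.529). In replicate 2, Aqp9 stood at 1.33 CPM per 1000 CPM of hepatocyte markers, inside the range of 0.916 to 1.86 of the 4 liver libraries. In the other eWAT libraries that ratio was 11.3, 22.8 and 199.7. In eWAT under the Crtc1+/+ label, Aqp9 stood at 1.60 and 1.49 CPM per 1000 CPM of epididymis markers. Under the Crtc1-/- label, where those markers summed to only 33.8 and 12.6 CPM, this ratio was 315 and 9536. Aqp9 thus did not follow the epididymis markers across the labels.

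Aqp8 was highest in the eWAT libraries with most hepatocyte RNA. It had 0.270 and 12.3 CPM in eWAT under the Crtc1-/- label and 4.42 and 0.284 CPM under the Crtc1+/+ label, so the groups overlapped fully and both held a library at 5 counts. Its log2 fold change of 1.87 had a standard error of 1.92 (edgeR, adjusted p = 0.517) and became -2.87 without replicate 2 of eWAT under the Crtc1-/- label (adjusted p = 0.379). Per 1000 CPM of hepatocyte markers, Aqp8 stood at 0.137 CPM in that replicate at 0.114 to 0.296 CPM in liver and at 0.286 to 0.814 CPM in the other eWAT libraries.

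Aqp11, the channel of intracellular membranes, had 6.38 and 15.5 CPM in eWAT under the Crtc1-/- label and 39.9 and 22.3 CPM under the Crtc1+/+ label. The groups did not overlap, yet the log2 fold change of -1.13 (standard error 0.63) was not past the threshold (edgeR, adjusted p = 0.263). Without replicate 2 of eWAT under the Crtc1-/- label it was -2.11 (adjusted p = 0.0704). In that replicate Aqp11 stood at 0.172 CPM per 1000 CPM of hepatocyte markers, against 0.105 to 0.195 CPM in liver and 6.74 to 32.8 CPM in the other eWAT libraries. Aqp4 had 0.270 and 1.30 CPM in eWAT under the Crtc1-/- label and 0.928 and 0.681 CPM under the Crtc1+/+ label, again with the highest value in the library that held hepatocyte RNA. Its log2 fold change of 0.36 (edgeR, adjusted p = 0.821) was -0.04 when libraries were scaled by their totals. Over the tested members, the groups of eWAT did not overlap for Aqp1 and Aqp7, which were higher under the Crtc1-/- label, and for Aqp9 and Aqp11, which were lower, 4 of 8, against 65.0% of all genes tested.

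The remaining members were low in eWAT, and Aqp3 was at or near the limit of detection. Aqp2 had 8.57 CPM in replicate 1 of eWAT under the Crtc1+/+ label and 0.568 CPM in replicate 2, 1.57 CPM in replicate 1 of eWAT under the Crtc1-/- label and no count in its replicate 2. Its value was thus set by 1 library, and the log2 fold change of -2.31 (standard error 1.93; edgeR, adjusted p = 0.429) became 0.55 without that library. The list of 6 sperm and testis genes summed to 1088, 484, 100.1 and 11.3 CPM in these 4 libraries as listed, also highest in the first. Aqp5 had 2.05 and 0.284 CPM in eWAT under the Crtc1-/- label against 2.08 and 0.851 CPM, with overlap and a log2 fold change of -0.09 (edgeR, adjusted p = 0.959). Aqp3, the aquaglyceroporin beside Aqp7, had 2 and 3 counts in eWAT under the Crtc1-/- label and 13 and 3 counts under the Crtc1+/+ label and did not pass the filter on low counts. Its pooled ratio was 3.22 in favour of the Crtc1+/+ label, with an exact 95% interval of 1.13 to 11.2 that covers counting error only. At this depth the glycerol-passing members measured well in eWAT were Aqp7 and Aqp9, not Aqp3.

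Of the family members outside the rule, Aqp6, a channel of intracellular vesicles and the neighbour of Aqp5, was found with the epididymis markers. It had 10.8 and 9.99 CPM in eWAT under the Crtc1+/+ label, and 2 counts and no count under the Crtc1-/- label. The pooled ratio was 188 with an exact 95% interval of 51.7 to 1559 for counting error (edgeR, adjusted p = 0.0257). Mip, the channel of the eye lens, and Aqp12, a channel of the pancreas, stayed under 0.3 CPM in every library.

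**Figure D4:**
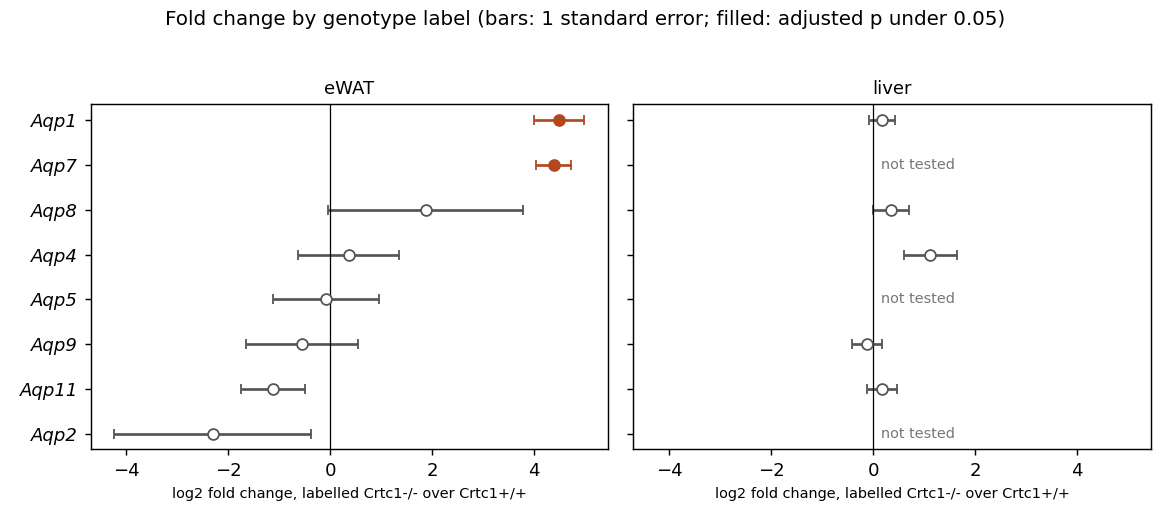
Log2 fold change of each tested aquaporin between libraries labelled Crtc1-/- and Crtc1+/+ in eWAT and in liver, with bars of 1 standard error and filled points for adjusted p under 0.05 (edgeR). Aqp1 (4.49) and Aqp7 (4.38) in eWAT are the filled points, and the 5 members tested in liver lie between -0.12 and 1.12.

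Most genes of glycerol release rose in eWAT, as Aqp7 did. Over all 15391 genes tested in eWAT, 1023 rose and 852 fell. Of 9 genes of glycerol release and use, 6 rose, none fell and 3 did not pass the test. The median log2 fold change of the 9 genes was 2.36. The 9 adipocyte markers moved with them, at a median of 3.81 with all 9 positive, and their part in the change was not tested. Pck1, whose enzyme supplies glycerol phosphate when glucose is scarce, rose by 4.63 on the log2 scale (edgeR, adjusted p = 0.026). The lipases rose by 4.03 for Lipe, hormone-sensitive lipase (adjusted p = 0.0202), 3.63 for Pnpla2, the first enzyme of triglyceride breakdown (0.0269), and 3.20 for Mgll, the monoglyceride lipase (0.0251). Gpd1, the glycerol phosphate dehydrogenase of the cytosol, rose by 2.36 (adjusted p = 0.0367), and the sixth was Abhd5, the coactivator of Pnpla2. Gk, the kinase that captures free glycerol, had 7.998 and 20.02 CPM in eWAT under the Crtc1-/- label and 37.1 and 88.3 CPM under the Crtc1+/+ label (log2 fold change -1.80, adjusted p = 0.157). Without either eWAT library labelled Crtc1+/+ the calls of these genes were lost, as was that of Aqp7. Those fits leave 1 library in that group and lost the calls of all genes, so the loss is not particular to this list.

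Of 13 genes of salt and water transport in the epididymal duct, 12 were tested, 3 fell, none rose and the median log2 fold change was -1.26. That is a count to be read against the 12.2% of all genes called in eWAT. Slc9a2, a sodium-proton exchanger, fell by 6.23 on the log2 scale (edgeR, adjusted p = 0.0414), from 8.74 and 16.7 CPM to 5 counts and none. Scnn1a, a subunit of the epithelial sodium channel, fell by 2.23 (adjusted p = 0.0355), and Atp1b1, a subunit of the sodium pump, fell by 1.82 (adjusted p = 0.0417). Cftr, the chloride channel, had 6.66 and 23.7 CPM in eWAT under the Crtc1+/+ label and 0.486 CPM and none under the Crtc1-/- label (log2 fold change -5.69, adjusted p = 0.0674). All 15 epididymis markers fell. Those calls were also lost without either eWAT library of the Crtc1+/+ label, as were those of all genes. The calls of the 3 transport genes were lost in the same fits.

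In liver, no tested aquaporin passed the test for the genotype label. Aqp9 had 309 and 189 CPM in liver under the Crtc1-/- label and 257 and 264 CPM under the Crtc1+/+ label, so both libraries of one label lay between those of the other. Aqp8 had 49.3 and 23.5 CPM against 30.2 and 25.2 CPM, and Aqp11 had 32.4 and 21.6 CPM against 20.5 and 25.7 CPM, with overlap in each. Aqp1 had 34.2 and 31.6 CPM against 30.5 and 25.7 CPM, without overlap but with a log2 fold change of only 0.17 (standard error 0.25). Aqp4 had 5.15 and 2.05 CPM against 1.22 and 1.99 CPM, and its log2 fold change of 1.12 with a standard error of 0.52 was the farthest from 0 (edgeR, adjusted p = 0.303). The others ranged from -0.12 for Aqp9 to 0.35 for Aqp8.

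Of the 5 members tested in liver, 0 passed an adjusted p of 0.05 in edgeR, DESeq2 or limma, and 0 passed an unadjusted p of 0.05 in edgeR. Of all 11707 genes tested, 0.0854% passed the adjusted threshold and 17.3% the unadjusted one. The groups did not overlap for Aqp1 and Aqp4, 2 of the 5 tested members, against 51.4% of all genes. Aqp7 had 0.631 and 0.362 CPM in liver under the Crtc1-/- label and 0.254 and 0.358 CPM under the Crtc1+/+ label, and was not tested. Aqp3 and Aqp5 had at most 6 counts in a liver library, and Aqp2 had none in any. Of the glycerol genes 0 of 9 and of the salt and water genes 0 of 6 tested in liver passed the edgeR threshold.

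The difference between the changes in eWAT and in liver was tested as an interaction in a fit of all 8 libraries. It was 4.22 on the log2 scale for Aqp1 (standard error 0.49; edgeR, adjusted p = 0.0095) and 3.64 for Aqp7 (standard error 0.50; adjusted p = 0.0123). These were 2 of 8 members tested, against 6.94% of all 15587 genes. The change under the Crtc1-/- label was therefore larger in eWAT than in liver for both, although Aqp7 had at most 12 counts in any liver library. Without replicate 2 of eWAT under the Crtc1+/+ label, or without either library of liver under that label, the differences were 3.37 to 4.33. Neither gene stayed past the threshold in these fits. Each fit leaves 1 library in a group, and fewer of all genes were called too, so the loss is not particular to Aqp1 and Aqp7. For Aqp9, Aqp11, Aqp8 and Aqp4 the interaction lay between -1.34 and 1.5, with adjusted p from 0.314 to 0.902. That of Aqp9 became -3.33 (adjusted p = 0.0143) without replicate 2 of eWAT under the Crtc1-/- label.

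The tissues were compared within each label in the same fit. The TMM factors that multiply the library totals were 1.21 to 1.68 in eWAT and 0.627 to 0.676 in liver, so a fold change between tissues depends on the scaling. The median over all genes was 0.61 with TMM and 2.0 with library totals within the Crtc1+/+ label, and 0.20 and 1.33 within the Crtc1-/- label, so values are read beside these. Aqp7 was called higher in eWAT under both labels. It was higher in eWAT than in liver by 4.39 on the log2 scale within the Crtc1+/+ label (standard error 0.36, edgeR, adjusted p = 0.000526). Within the Crtc1-/- label it was higher by 8.04 (standard error 0.39, adjusted p = 0.000327). With library totals these were 5.78 and 9.17, the highest values of 18 alternatives. The lowest were 1.44 and 5.91.

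Within the Crtc1+/+ label, Aqp8 was the other member called, at -4.95 (standard error 1.69; adjusted p = 0.0416), and at -3.55 with library totals (adjusted p = 0.0609). Aqp9 was at -2.41 (adjusted p = 0.0868), and Aqp1 at 0.69 (adjusted p = 0.112), or 2.09 with library totals (adjusted p = 0.00381). Aqp11 was at -0.97 (adjusted p = 0.177) and turned to 0.43 with library totals. Thus 2 of 8 members were called in this comparison, where 54.9% of all genes were. Aqp8 lost its call without any 1 of the 4 liver libraries or of the 2 eWAT libraries labelled Crtc1+/+. Fewer of all genes were called in those fits too. Other members gained a call without either eWAT library labelled Crtc1-/-. All these fits leave 1 library in a group, so the number called is not given for them.

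Within the Crtc1-/- label, Aqp1 was higher in eWAT by 4.91 (standard error 0.39; edgeR, adjusted p = 0.00054). Aqp11 was lower, at -2.32 (adjusted p = 0.0292), and Aqp4 was lower, at -3.18 (adjusted p = 0.0455). With library totals these were -1.30 (adjusted p = 0.0593) and -2.19 (adjusted p = 0.078). With Aqp7 these were 4 of 8 members called, against 27.8% of all genes. With replicate number as a block in the fit 2 were called, Aqp1 and Aqp7, against 4512 of all 15587 genes. Aqp11 and Aqp4 lost their calls without any 1 of the 4 liver libraries. Those fits leave 1 library in a group, and fewer of all genes were called in them too. Aqp9 (-2.85, adjusted p = 0.0847) and Aqp8 (-3.45, adjusted p = 0.132) were not called, and their eWAT values included the replicate with hepatocyte RNA, without which Aqp9 stood at -5.91 (adjusted p = 0.000328) and Aqp8 at -8.39 (adjusted p = 0.00534).

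For the members at or near 0 in liver, a fitted fold change has no fixed size. Aqp2 was at least 29.9-fold higher in eWAT than in liver within the Crtc1+/+ label and at least 4.62-fold higher within the Crtc1-/- label, against a floor of 3 counts per library. Both means rest mainly on replicate 1 of eWAT, as does that of Aqp5 within the Crtc1-/- label, with 38 against 5 counts. Neither gene was called between tissues in edgeR. Adjusted p was 0.0832 for Aqp2 and 0.112 for Aqp5 within the Crtc1+/+ label, and 0.26 and 0.144 within the Crtc1-/- label. Aqp5 was 19.3-fold higher within the Crtc1+/+ label (exact 95% interval of 6.26 to 96.7 for counting error) and 21.2-fold higher within the Crtc1-/- label (5.52 to 180.4).

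Ordered by mean CPM, Aqp1 stood at 2201 in eWAT of the Crtc1-/- label, 119.8 in eWAT of the Crtc1+/+ label, 32.9 in liver of the Crtc1-/- label and 28.1 in liver of the Crtc1+/+ label, and neighbours did not overlap at any step. Aqp7 kept that order, with 292, 17.1, 0.497 and 0.306, but had at most 12 counts in a liver library and was not tested there. Non-overlap of the labels alone was common, at 65.0% of all genes tested in eWAT and 51.4% in liver. The liver step of Aqp1 was not called, at a log2 fold change of 0.17 (edgeR, adjusted p = 0.743). For Aqp9 the liver groups came first (260.5 under the Crtc1+/+ and 249 under the Crtc1-/- label) and overlapped, followed by eWAT (129.7 and 65.4 in the same order of labels). For Aqp8 the liver groups (36.4 under the Crtc1-/- and 27.7 under the Crtc1+/+ label) overlapped, as did the eWAT groups (6.29 and 2.35). For Aqp11 the means were 31.1 in eWAT of the Crtc1+/+ label, 27.0 and 23.1 in liver and 10.9 in eWAT of the Crtc1-/- label, and the first 3 groups overlapped.

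For each member with at least 1 CPM in 2 or more libraries, the 3 genes with the nearest profile over the 8 libraries were found, by the root mean square difference of centred log2 CPM. Nearest to Aqp1 were Pde2a (0.23), Unc45b (0.24) and Fam57b (0.26), while the profile of Aqp1 itself had an SD of 2.23. Pde2a, a phosphodiesterase, had 894 and 546 CPM in eWAT under the Crtc1-/- label and 37.6 and 40.4 CPM under the Crtc1+/+ label, as Aqp1 was high and low there. Nearest to Aqp7 were Serpina3c (0.39), Cavin1 (0.44), a coat protein of caveolae, and Mc2r (0.45), the receptor for corticotropin. Aqp9 was nearest to Faah (0.27), Ak4 (0.30) and Pank1 (0.32). Faah, which breaks down fatty acid amides, had 14.5 CPM in replicate 1 of eWAT under the Crtc1-/- label and 112 to 241 CPM in the other 7 libraries.

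Aqp11 was nearest to Grb7 (0.22), C2cd4d (0.25) and Akr7a5 (0.28), and Aqp8 to Csrp3 (0.47), Urad (0.47) and Ugt1a5 (0.48). Urad, an enzyme of uric acid breakdown, had 5.45 CPM in replicate 2 of eWAT under the Crtc1-/- label, at most 0.710 CPM in the other eWAT libraries and 10.2 to 17.9 CPM in liver. Aqp2 was nearest to Tmco2 (0.18), Tcte3 (0.21) and Ddx4 (0.24), and Ddx4 is a helicase of germ cells. Ddx4 had 9.07 and 0.624 CPM in eWAT under the Crtc1+/+ label, 0.919 CPM and none under the Crtc1-/- label and none in liver, the same order of libraries as Aqp2. Aqp4 was nearest to Rarres1 (0.32), Ngef (0.36) and Acy1 (0.39), and Aqp5 to Prcd (0.30), Gpr183 (0.38) and Cytip (0.39). These likenesses rest on 8 libraries that share their tissue content and are a description.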

How the data were processed

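RNA-seq had been made from eWAT and liver of 2 mice per genotype label and tissue, and all 8 libraries were used, grouped by their labels. Estimated counts per gene, without normalization, and FPKM, scaled for length and library total, were deposited by the authors for 19348 genes. Per the labels, the submitters' processing notes name HISAT, Bowtie2 and the build GRCm38.p6; the order and settings of these tools are not given in the sources used here. Between 5.44% and 9.98% of values were not whole, as arises where reads are shared between genes, and estimated counts were rounded for the tests.

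CPM were computed from the counts and the library totals. The quasi-likelihood test of edgeR 4.0.16 (R 4.3.3) was run after filterByExpr and TMM scaling, and p-values were adjusted by Benjamini-Hochberg across every gene tested, with a threshold of 0.05. Each tissue was fitted alone for the genotype label, and all 8 libraries together for tissue and interaction. Standard errors were taken as the log2 fold change over the root of the F statistic. Alternatives were DESeq2 1.42.0, limma 3.58.1 on quantile-normalized log2(FPKM + 1) and log2(FPKM + 0.1), which is near the method of the study, other filters, other scalings, other sets of libraries, a replicate block and each library left out in turn. The scripts were tested on simulated data. A floor of 3 counts per library was used, and intervals are exact at 95% and cover counting error only. At these depths, the spread between mice limits the comparisons. The labels and methods give separate mice within a group, and do not say which eWAT and liver libraries share a mouse.

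The aquaporins, the gene lists and the tests were chosen with earlier results of these data known. Named were Crtc1, all members in every comparison, up to 5 genes per pathway list past the test in eWAT, the most abundant markers and the 3 nearest genes per member (prior of 2 CPM). Gk, Cftr, Abhd5 and Aqp6 were named after their values were seen. Promoter letters are those of RefSeq (GRCm38.p6).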

Additional observations from a re-analysis of the deposited data

Results flagged for a closer look

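The change of Aqp1 under the Crtc1-/- label was larger in eWAT than in liver by 4.22 on the log2 scale, by a test of the difference between the tissues (edgeR interaction, adjusted p = 0.0095). Both eWAT libraries labelled Crtc1-/- were above both labelled Crtc1+/+, and so were both liver libraries, by far less. The change of Aqp7 was larger in eWAT than in liver by 3.64 on the log2 scale in the same test (adjusted p = 0.0123). Adipocyte and endothelial markers rose in the same eWAT libraries, and their part in either difference was not tested beyond the ratios given above.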

How the results depend on the processing

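The direction of the eWAT changes of Aqp1 (4.06 to 4.69 on the log2 scale) and Aqp7 (4.01 to 4.55) held in all 14 alternatives, and 11 of them kept each call. With the replicate block the eWAT count was 0 in place of 2. It was also 0 for the glycerol, salt and water, adipocyte, endothelial and epididymis genes. Of all 15391 genes tested 0 were called there, so these losses are not particular to the aquaporins or the lists. Within the Crtc1-/- label the tissue count was 2 in place of 4 with that block (Aqp4 -3.33, Aqp11 -2.51). Deviations of same-numbered libraries correlated by 0.009 within eWAT, 0.052 within liver and 0.152 at most, so the numbers were not taken to pair them. Leaving out 1 library gave counts of 0 to 3 in eWAT, 0 to 3 for the interaction, 1 to 6 for tissue within the Crtc1+/+ label and 2 to 6 within the Crtc1-/- label. The tissue count within the Crtc1+/+ label was 5 with DESeq2, 4 with limma at a pseudocount of 1, 4 at 0.1, 4 with library totals and 7 in the 4 libraries of that label alone; within the Crtc1-/- label it was 2 with library totals and 2 in its 4 libraries alone. With CPM in place of FPKM, the share of Aqp1 was 39.0% in eWAT and 8.23% in liver labelled Crtc1+/+, that of Aqp7 11.4% in eWAT labelled Crtc1-/-, and in liver, under the Crtc1-/- label and then the Crtc1+/+ label, that of Aqp7 was 0.141% and 0.0894% and that of Aqp9 71.1% and 76.3%. Without Cdh5, Aqp1 per endothelial marker differed by 0.98 in place of 0.85. With 1 library left out, the fold changes ranged in eWAT from -9.19 to 0.55 for Aqp2, -1.39 to 1.15 for Aqp4, -1.88 to 0.67 for Aqp5, -2.87 to 4.95 for Aqp8 and -3.46 to 0.34 for Aqp9, in liver from -0.30 to 0.79 for Aqp8, -0.53 to 0.21 for Aqp9 and -0.17 to 0.45 for Aqp11, and in the interaction from -3.29 to 4.5 for Aqp8. In eWAT the sign turned for Aqp5 with limma (0.27 and 0.48), without eWAT labelled Crtc1+/+ replicate 1 (0.59) and without Crtc1-/- replicate 2 (0.67), for Aqp4 with library totals (-0.04) and without Crtc1-/- replicate 2 (-1.39), for Aqp8 without that library (-2.87), for Aqp9 without Crtc1-/- replicate 1 (0.34) and for Aqp2 without Crtc1+/+ replicate 1 (0.55). In liver it turned for Aqp11 without Crtc1+/+ replicate 1 (-0.00036) and without Crtc1-/- replicate 1 (-0.17), for Aqp8 without Crtc1-/- replicate 1 (-0.30) and for Aqp9 without Crtc1-/- replicate 2 (0.21). Between tissues it turned for Aqp11 with library totals (0.43). In the interaction it turned for Aqp4 with limma at 0.1 (0.05), without liver labelled Crtc1-/- replicate 1 (0.08) and without eWAT labelled Crtc1-/- replicate 1 (0.05), for Aqp9 without those libraries (0.0088 and 0.48) and for Aqp8 without eWAT labelled Crtc1-/- replicate 2 (-3.29). None of these turns concerned a member called in that comparison, and the cause was not tested. Among all single genes and lists, 492 values kept direction and call, 25 gained a call, 37 lost it, 20 turned sign and 17 counts moved by more than 1.5 times, and of the counts of called aquaporins, ratios and shares, 34 values moved and 67 did not. Counts were low for Aqp3 in every library, for Aqp2 and Aqp5 in liver and part of eWAT, and for Aqp7 in liver.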
